A study of Macaca fascicularis with 48 samples.

Results

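The genes described here are 10 markers of blood vessel walls that were chosen by name: PECAM1, CDH5, CLDN5, TEK, TIE1, FLT1, KDR, RGS5, PDGFRB and SLC2A1. They are 10 of the 16842 gene names in the deposited count table, and all 10 passed the filter on low counts in every comparison. The choice was made with earlier results of these data known, and the genes vary in part together. Shares over all genes, where set beside the counts of the 10 below, are therefore a description and not a test. Messenger RNA came from cynomolgus monkeys (Macaca fascicularis) given GS-8873 by oral gavage over 13 weeks, at 6 mg/kg/day in treated animals and 0 mg/kg/day in control animals. The submitters describe GS-8873 as an inhibitor of the transcripts of hepatitis B virus. Liver, cervical and lumbar dorsal root ganglia, and cervical, thoracic and lumbar spinal cord were each represented by 4 treated and 4 control libraries, from 2 males and 2 females a group. Replicates within a tissue are separate animals. The same 4 control animals gave every tissue, so the comparisons of the 6 tissues share their controls, and the same 4 treated animals gave liver and cord. The ganglia came from 6 treated animals, of which 2 gave both ganglia, so a treated replicate number in ganglia is in part another animal than in cord or liver. Age and strain are not given in the sources used here.

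Endothelial cells line blood vessels and are joined to each other by adherens and tight junctions, while pericytes sit on the outer face of the smallest vessels and are held there by signalling through PDGFRB. In brain and spinal cord these cells form a barrier with sealed tight junctions and a dense supply of glucose carriers. Vessels of dorsal root ganglia, where the cell bodies of sensory neurons lie, are more permeable, and the sinusoids of the liver are lined by perforated endothelium without such a seal, with stellate cells in the place of pericytes. The roles given below for single genes are those known from human and mouse.

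Total counts ran from 35453786 to 53480762 per library (median 45318800, 48 libraries). Liver libraries held 120329 to 165174 CPM (counts scaled to the total of the library) of ALB, the albumin gene, while cord held at most 126 and ganglia at most 2.67. Some cord libraries stood apart. MOG, a gene of central myelin, was at 0.0870 and 0.258 CPM in lumbar cord of treated animal 1 and control animal 1, against 330.0 to 1181 in the other 22 cord libraries. SNAP25, a gene of neuronal synapses, was at 4.17 and 30.5 CPM in that pair and at 16.6 CPM in cervical cord of control animal 1, against 153 to 2522 in the other 21. The mitochondrial share of counts was 32.2% to 37.3% in 3 thoracic libraries (treated replicates 1 and 4, control replicate 4). Levels below are CPM after TMM scaling (trimmed mean of M values) within each comparison. A gene was called, or passed, where its p adjusted by Benjamini-Hochberg over all genes tested was under 0.05.

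The genes lie on 8 chromosomes of the Macaca_fascicularis 5.0 build, as the deposited table gives them. The junction genes are PECAM1 (chr16:61651396-61723841, minus strand, 17 exon blocks), CDH5 (chr20:54469255-54507727, plus strand, 12 blocks) and CLDN5 (chr10:31944630-31945286, plus strand, 1 block). The angiopoietin receptor genes are TEK (chr15:51550714-51673172, minus strand, 24 blocks) and TIE1 (chr1:184290433-184313887, minus strand, 24 blocks). The VEGF receptor genes are FLT1 (chr17:8034897-8230898, minus strand, 34 blocks) and KDR (chr5:79361478-79409535, plus strand, 30 blocks). The pericyte genes are RGS5 (chr1:21209163-21280241, minus strand, 8 blocks) and PDGFRB (chr6:149463045-149505667, minus strand, 23 blocks), and the glucose carrier gene is SLC2A1 (chr1:184719576-184753398, plus strand, 13 blocks). CLDN5 is annotated by a single block of 657 bases, a multiple of 3, and so by its coding length, while the other 9 have annotated lengths of 2208 to 13567 bases. Levels per kilobase of CLDN5 therefore rest on a shorter model, and reads outside it were not counted. Counting did not use strand, so reads of an antisense or overlapping partner were not told apart.

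The 4 control animals were used to set the tissues side by side, with levels as CPM per kilobase. In liver, KDR, PECAM1, CDH5, TEK and TIE1 were higher than in cord, while SLC2A1, RGS5, CLDN5 and PDGFRB were lower. Averaged over regions, the ganglia were lower than cord in CLDN5, FLT1, RGS5 and SLC2A1. This did not hold for each region. Mean SLC2A1 was 68.6 in cervical ganglia, against 63.2 in cervical and 46.6 in thoracic cord. Mean FLT1 was 1.69 in cervical and 1.83 in lumbar ganglia, near the 1.90 of thoracic cord. Between liver and cord 9 of the 10 genes passed in edgeR at an adjusted p under 0.05, as did 76% of all 15008 genes tested. Between ganglia and cord 4 of 10 passed, as did 61.9% of all genes, and between liver and ganglia 8 of 10 passed, as did 75.4%. Without the control lumbar library low in MOG 6 of 10 passed between ganglia and cord, and the other 2 counts were again 9 and 8. Most genes of the table thus also differed between these tissues.

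CDH5 encodes the cadherin of endothelial adherens junctions, PECAM1 an adhesion molecule at the same contacts, and CLDN5 the main claudin of the tight junctions of barrier vessels. PECAM1 averaged 29.7 ± 7.01 CPM per kilobase in liver, 15.1 ± 11.9 in cervical ganglia, 11.9 ± 3.23 in lumbar ganglia, 13.9 ± 6.46 in lumbar cord, 9.81 ± 1.41 in cervical cord and 4.65 ± 1.93 in thoracic cord (SD, n = 4 in each tissue here and below). CDH5 followed with 16.2 ± 3.14 in liver, 8.57 ± 5.56 in cervical ganglia, 6.83 ± 1.69 in lumbar ganglia, 10.5 ± 8.19 in lumbar cord, 6.87 ± 3.18 in cervical cord and 1.96 ± 1.04 in thoracic cord. Both genes thus had their highest mean in liver and their lowest in thoracic cord. The lumbar mean of CDH5 rests on the library low in MOG, at 22.7, and was 6.40 ± 1.20 in the other 3. For PECAM1 that library had 23.4, and the other 3 averaged 10.7 ± 1.46. CLDN5 ran the other way, with 3.59 ± 0.848 in liver, 3.18 ± 1.79 in cervical ganglia and 3.15 ± 1.91 in lumbar ganglia, against 15.7 ± 3.44 in lumbar cord, 14.1 ± 1.57 in thoracic cord and 10.6 ± 1.52 in cervical cord. No liver library reached the lowest cord library for CLDN5. Its log2 difference was -1.94 ± 0.33 (SE) for liver over cord (edgeR adjusted p = 4.06e-05) and -2.20 ± 0.25 for ganglia over cord (adjusted p = 1.05e-06), and the difference of liver over ganglia, 0.26 ± 0.31, did not pass. PECAM1 was higher in liver than in cord by 1.76 ± 0.29 and CDH5 by 1.70 ± 0.33, both called. Between ganglia and cord the same 2 genes gave 0.57 ± 0.25 and 0.65 ± 0.29, with edgeR adjusted p of 0.0553 and 0.0574, and both passed in DESeq2 (0.0258 and 0.0231), as 65.3% of all genes did. Without the lumbar library low in MOG both passed in edgeR too, at 0.66 and 0.77 (adjusted p = 0.0238 and 0.0147). Without control animal 4 they were at 0.11 and 0.13 (adjusted p = 0.617 and 0.673).

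TEK is the receptor of the angiopoietins and TIE1 its partner without a known high-affinity ligand, and both are made almost wholly by endothelial cells. TEK stood at 12.3 ± 1.49 CPM per kilobase in liver, 3.72 ± 2.55 in cervical ganglia, 2.98 ± 0.566 in lumbar ganglia, 5.07 ± 1.15 in lumbar cord, 4.60 ± 0.416 in cervical cord and 1.93 ± 0.599 in thoracic cord. All 4 liver libraries lay above every other library for TEK. TIE1 had lower levels per kilobase, 6.20 ± 0.867 in liver, 1.36 ± 0.492 in thoracic cord and means of 2.42 to 3.21 in the other 4 tissues. The lumbar cord library low in MOG had 5.51 of TIE1, and the other 3 averaged 2.44 ± 0.392. Liver over cord gave 1.78 ± 0.23 for TEK and 1.5 ± 0.24 for TIE1, while ganglia and cord did not differ beyond error (-0.15 ± 0.20 and 0.21 ± 0.20). 

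KDR is the main signalling receptor for VEGF in endothelial cells, and FLT1 binds VEGF more tightly but signals weakly. KDR gave the largest liver excess of the 10 genes, with 21.1 ± 2.75 CPM per kilobase in liver, 2.99 ± 1.15 in cervical ganglia, 2.59 ± 0.454 in lumbar ganglia, 7.32 ± 6.92 in lumbar cord, 5.24 ± 3.53 in cervical cord and 1.4 ± 0.808 in thoracic cord. In lumbar cord the library low in MOG had 17.6, and the other 3 averaged 3.88 ± 0.993. Its log2 difference was 2.57 ± 0.37 for liver over cord and 2.90 ± 0.42 for liver over ganglia. FLT1 did not share this pattern: 3.12 ± 0.362 in liver, 1.69 ± 0.506 in cervical ganglia, 1.83 ± 0.297 in lumbar ganglia, 5.08 ± 1.98 in cervical cord, 4.89 ± 1.98 in lumbar cord and 1.90 ± 0.874 in thoracic cord. For FLT1 the difference of liver over cord was -0.18 ± 0.24 (adjusted p = 0.524), and that of ganglia over cord was -1.01 ± 0.20 (adjusted p = 0.000309).

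RGS5, a regulator of G protein signalling that marks pericytes, and PDGFRB, the receptor that holds pericytes on the vessel, both had their lowest mean in liver. RGS5 averaged 10.5 ± 9.15 CPM per kilobase in liver, 13.1 ± 0.720 in cervical ganglia and 15.4 ± 1.66 in lumbar ganglia, against 56.4 ± 13.6 in lumbar, 50.5 ± 6.89 in cervical and 23.7 ± 15.7 in thoracic cord. PDGFRB averaged 3.00 ± 0.953 in liver, 7.94 ± 5.43 in cervical ganglia and 6.56 ± 1.85 in lumbar ganglia, against 16.2 ± 12.3 in lumbar, 10.6 ± 4.76 in cervical and 7.05 ± 1.56 in thoracic cord. The lumbar library low in MOG had 34.4 of PDGFRB, and the other 3 averaged 10.1 ± 2.48. The log2 difference of liver over cord was -2.08 ± 0.49 for RGS5 and -1.75 ± 0.38 for PDGFRB. Ganglia over cord gave -1.49 ± 0.34 for RGS5, which passed (adjusted p = 0.00123), and -0.54 ± 0.28 for PDGFRB, which did not. PDGFRB passed without control animal 4 (-0.97, edgeR adjusted p = 0.00892) and was at -0.18 without control animal 1. Liver over ganglia gave -0.59 ± 0.47 for RGS5 (adjusted p = 0.256), with overlapping ranges, and -1.21 ± 0.39 for PDGFRB (adjusted p = 0.00889).

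SLC2A1, the glucose carrier of barrier endothelium that red cells and perineurial cells also make, had the highest cord levels of the 10 genes per kilobase. It stood at 7.33 ± 0.963 CPM per kilobase in liver, 68.6 ± 38.4 in cervical ganglia and 29.3 ± 8.53 in lumbar ganglia, against 76.8 ± 33.7 in lumbar, 63.2 ± 15.7 in cervical and 46.6 ± 5.54 in thoracic cord. The lumbar cord library low in MOG had 126, and the other 3 averaged 60.4 ± 9.34. Liver lay below every cord and ganglion library, with a log2 difference of -3.04 ± 0.27 for liver over cord (adjusted p = 1.64e-08). Averaged over regions, the ganglia lay below cord by -0.47 ± 0.18 (adjusted p = 0.0339), although the mean of cervical ganglia was above those of cervical and thoracic cord. The call was lost without control animal 1 (-0.25, adjusted p = 0.273), control animal 2 (-0.51, adjusted p = 0.102) or control animal 3 (-0.34, adjusted p = 0.223).

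With the 6 tissues put in order of their mean for each gene, 44 of the 50 pairs of neighbours overlapped in the range of their 4 libraries. The 6 that did not were PECAM1 and RGS5 between cervical and thoracic cord, CDH5 between lumbar ganglia and thoracic cord, CLDN5 between cervical cord and liver, TEK between liver and lumbar cord, and SLC2A1 between lumbar ganglia and liver. These ranges do not rank the other neighbours, and they leave aside that the same 4 control animals gave every tissue.

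**Figure D1:**
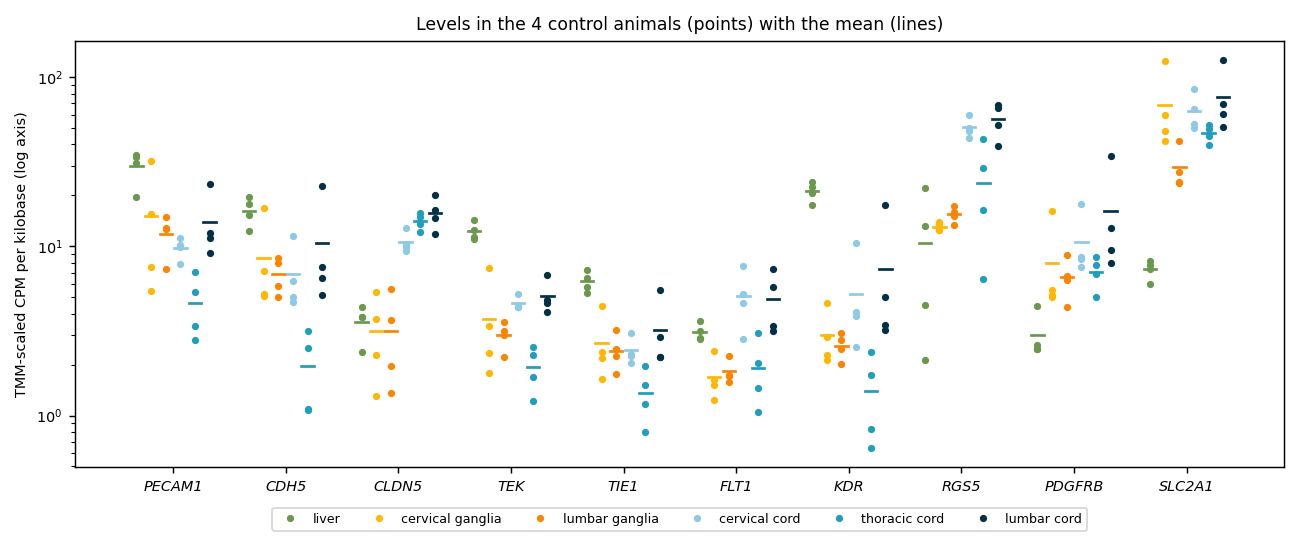
Levels of the 10 genes in the 4 control animals, as CPM per kilobase (vertical axis, log scale) for each gene along the horizontal axis, coloured by tissue, with a point per library and a line at the mean. RGS5, PDGFRB and SLC2A1 have their lowest means in liver, while KDR, PECAM1, CDH5, TEK and TIE1 have their highest means there (KDR 21.1, PECAM1 29.7 CPM per kilobase). CLDN5 is lower in liver and ganglia than in cord, with its lowest means in the ganglia.

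Along the cord, with all 8 animals in 1 fit and the animal as block, the thoracic region was the low one. Of the 10 genes 7 were lower in thoracic than in cervical cord in edgeR, where 17.3% of all 14419 genes were lower and 40.2% passed either way. CDH5 showed the largest difference, -1.51 ± 0.27 (adjusted p = 0.000707), followed by KDR at -1.36 ± 0.41, FLT1 at -1.20 ± 0.23 and TEK at -0.97 ± 0.22. PDGFRB and SLC2A1 gave -0.45 ± 0.27 and -0.29 ± 0.14 without passing, and CLDN5 gave 0.22 ± 0.21. In lumbar over thoracic cord 9 of 10 were higher, as were 24.1% of all genes, with 50.5% called either way, from 0.47 ± 0.14 for SLC2A1 to 2.15 ± 0.28 for CDH5, with CLDN5 again near 0 (0.12 ± 0.20). The calls of PDGFRB and SLC2A1 were lost without the pair of lumbar libraries low in MOG (adjusted p = 0.0533 and 0.0563). KDR in thoracic over cervical cord was lost without control animal 2 (adjusted p = 0.0578), and PDGFRB in lumbar over thoracic cord without control animal 1 (adjusted p = 0.0526). The mitochondrial share of counts also differed between these regions, 10.5% to 37.3% in thoracic and 8.77% to 25.7% in cervical libraries, and its part in the result was not tested. Lumbar over cervical cord gave 0 of 10 in edgeR (8 genes, 0.0555% of all), with 2 of 10 at an unadjusted p under 0.05, as 2557 genes were.

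Ganglia differed by region in 1 gene. SLC2A1 was lower in lumbar than in cervical ganglia by -1.04 ± 0.18 (limma adjusted p = 0.0300), the only one of 10 to pass. Of 14535 genes 0.179% passed and 0.11% were lower in lumbar ganglia. That call was lost without control animal 1 or 3 or treated animal 4 or 5, with limma adjusted p of 0.0523 to 0.185 and log2 differences of -1.09 to -0.98. The other 9 genes lay between -0.27 and 0.22.

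Treated animals were then compared with control animals in each tissue. In every cord region the treated mean of most of the genes lay below the control mean, by about 0.4 to 0.6 on the log2 scale in the median, and no gene passed the test over all genes. In ganglia and liver the genes were spread around 0, apart from KDR in ganglia and SLC2A1 in liver, whose treated levels were above control without passing. In bulk tissue fewer vessel cells and less RNA per vessel cell cannot be told apart.

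In cervical cord 9 of 10 genes had a negative log2 fold change of treated over control, with a median of -0.60, against 49.5% negative and a median of 0.00 over the 14235 genes tested. Of the 10 genes 0 passed in edgeR (0% of all genes passed), 4 had an unadjusted p under 0.05 (1356 genes in all), and 0 passed in DESeq2 or limma voom. For 4 of the 10 genes all treated libraries lay below all control libraries, which held for 2.91% of all genes. PECAM1 was at 25, 31.5, 34.8 and 20.8 CPM in treated animals 1 to 4, against 50.7, 36.3, 46.6 and 46.6 CPM in control animals 1 to 4. TEK was at 13.4, 19.5, 17.9 and 9.99 CPM in treated animals, against 25.5, 26.1, 26.4 and 30.7 in control animals. In both genes the treated animal 4 was the lowest library and the ranges did not meet. The log2 fold changes were -0.68 ± 0.20 (SE) for PECAM1 and -0.84 ± 0.23 for TEK, each with an edgeR adjusted p of 0.504 and an exact two-sided permutation p of 0.0286, the smallest that 4 against 4 can give.

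The pericyte gene RGS5 had 54.5, 111, 68.5 and 57.7 CPM in treated cervical cords, against 129, 126, 115 and 155 CPM in control cords. Only treated animal 2 came close to the controls, and the fold change was -0.86 ± 0.24 (adjusted p = 0.504 in edgeR, exact p = 0.0286). SLC2A1 had 147, 153, 188 and 193 CPM in treated cords, against 322, 195, 209 and 250.2 CPM in control cords. The gap there was narrow, since treated animal 4 lay just under control animal 2, and control animal 1 was far above the rest. Its fold change was -0.52 ± 0.19, and -0.31 without control animal 1. That library was also the one low in SNAP25. The median of the 10 genes was -0.48 without it, with PDGFRB at -0.26 and KDR at -0.36.

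The other cervical genes overlapped between the groups. CDH5 gave -0.84 ± 0.37, KDR -0.63 ± 0.50, PDGFRB -0.58 ± 0.26, FLT1 -0.49 ± 0.33 and TIE1 -0.42 ± 0.20, with edgeR adjusted p between 0.504 and 0.608. CLDN5 was the 1 gene without a negative value. It spread from 5.29 to 17.1 CPM in treated cords and from 7.31 to 9.86 CPM in control cords, so the treated range held the whole control range. Treated animal 4, with the lowest PECAM1, CDH5, TEK, TIE1, FLT1, KDR and PDGFRB, also had the highest CLDN5 and the highest SLC2A1 of its group. Its mitochondrial share of counts, 25.7%, was the highest of the cervical cords. The share was 12.2% to 25.7% in treated (median 15.4%) and 8.77% to 17.2% in control libraries (median 11.7%), and its part in the result was not tested. Without treated animal 4 the median of the 10 genes was -0.53, with KDR at -0.33 and FLT1 at -0.24.

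Markers of cells around the cord also lay mostly below control in cervical cord. Of 8 fibroblast and meningeal genes 7 had a negative fold change (median -0.92), with summed levels of 121 to 1051 CPM in treated and 193 to 2491 CPM in control libraries. None of the 8 was at 0 in any cord library, 0 passed, and their part in the result was not tested. All 3 red cell genes were positive (median 0.67), with 28 to 99.0 CPM in treated and 33.1 to 52.8 CPM in control libraries.

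In thoracic cord all 10 genes had a negative fold change, with a median of -0.44 against 0.00 over the 14032 genes tested, of which 50.0% were negative. Here 0 of 10 passed in edgeR (0% of all genes), 2 had an unadjusted p under 0.05, as 327 genes did, and 0 passed in DESeq2 or limma voom. SLC2A1 was the 1 gene without overlap, as 1.17% of all genes were in that direction. It had 108, 109.8, 118 and 117 CPM in treated cords, against 159, 128, 169.9 and 144 CPM in control cords. The treated libraries were close together and the fold change was -0.41 ± 0.15 (edgeR adjusted p = 0.981, exact p = 0.0286). PDGFRB had 21.1, 27.5, 43.4 and 22.7 CPM in treated cords and 48.2, 31.1, 53.8 and 42.2 CPM in control cords, with a fold change of -0.62 ± 0.25 and an overlap at treated animal 3. TIE1 gave -0.69 ± 0.33, from 3.25, 4.23, 3.54 and 3.00 CPM in treated against 6.28, 4.90, 8.14 and 3.29 CPM in control cords, where control animal 4 lay among the treated ones. CDH5, TEK, FLT1, PECAM1 and CLDN5 gave -0.56 ± 0.41, -0.46 ± 0.32, -0.36 ± 0.32, -0.34 ± 0.31 and -0.32 ± 0.25, and RGS5 gave -0.56 ± 0.51. Control animal 3 was the highest control for all but CLDN5 and KDR. Without it 7 of 10 genes were negative, with a median of -0.24, and PECAM1 (0.018), FLT1 (0.0088) and RGS5 (0.18) turned positive. With the 3 libraries of a mitochondrial share over 30% left out, 9 of 10 were negative with a median of -0.50.

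In lumbar cord all 10 were again negative, with a median of -0.58 against -0.01 over 14361 genes, of which 51.2% were negative. None of the 10 passed in edgeR (0% of all genes), 1 had an unadjusted p under 0.05, as 250 genes did, and 0 passed in DESeq2 or limma voom. None of the 10 separated the groups, which 0.884% of all genes did in the lower direction. RGS5 was at 123, 78.9, 93.2 and 41.2 CPM in treated cords, against 183, 111, 180.3 and 143 CPM in control cords. Treated animal 1 lay above control animal 2 there, while in each of the 4 same-numbered pairs the treated library was the lower. The fold change was -0.91 ± 0.35 (edgeR adjusted p = 1.00), and -0.95 ± 0.26 with a replicate block (adjusted p = 0.985). SLC2A1 had 289.9, 137, 174 and 164 CPM in treated cords, against 500.2, 215, 282 and 246 CPM in control cords, a fold change of -0.69 ± 0.34, and was also lower in all 4 pairs. Animal 1 of each group was the highest library of its group, and these are the libraries low in MOG. PECAM1, CDH5, TEK and PDGFRB were lower in all 4 pairs as well, and the other genes in 3 of 4. The 2 members of a pair are different animals, and pairs are shown for this region because its same-numbered libraries deviated together in these data. No share over all genes is set beside the pair counts, so they only describe these libraries. PDGFRB, CDH5, FLT1, TEK, KDR and PECAM1 gave -0.69 ± 0.44, -0.61 ± 0.49, -0.59 ± 0.40, -0.57 ± 0.31, -0.53 ± 0.47 and -0.45 ± 0.43. Without the pair low in MOG all 10 were negative, with a median of -0.70. The values depended on single libraries: the median was -0.32 without control animal 1, -0.34 without treated animal 4 and -0.93 without treated animal 1. Without control animal 1, SLC2A1 was at -0.34 and KDR at -0.13, and without treated animal 2 PECAM1 was at -0.21.

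**Figure D2:**
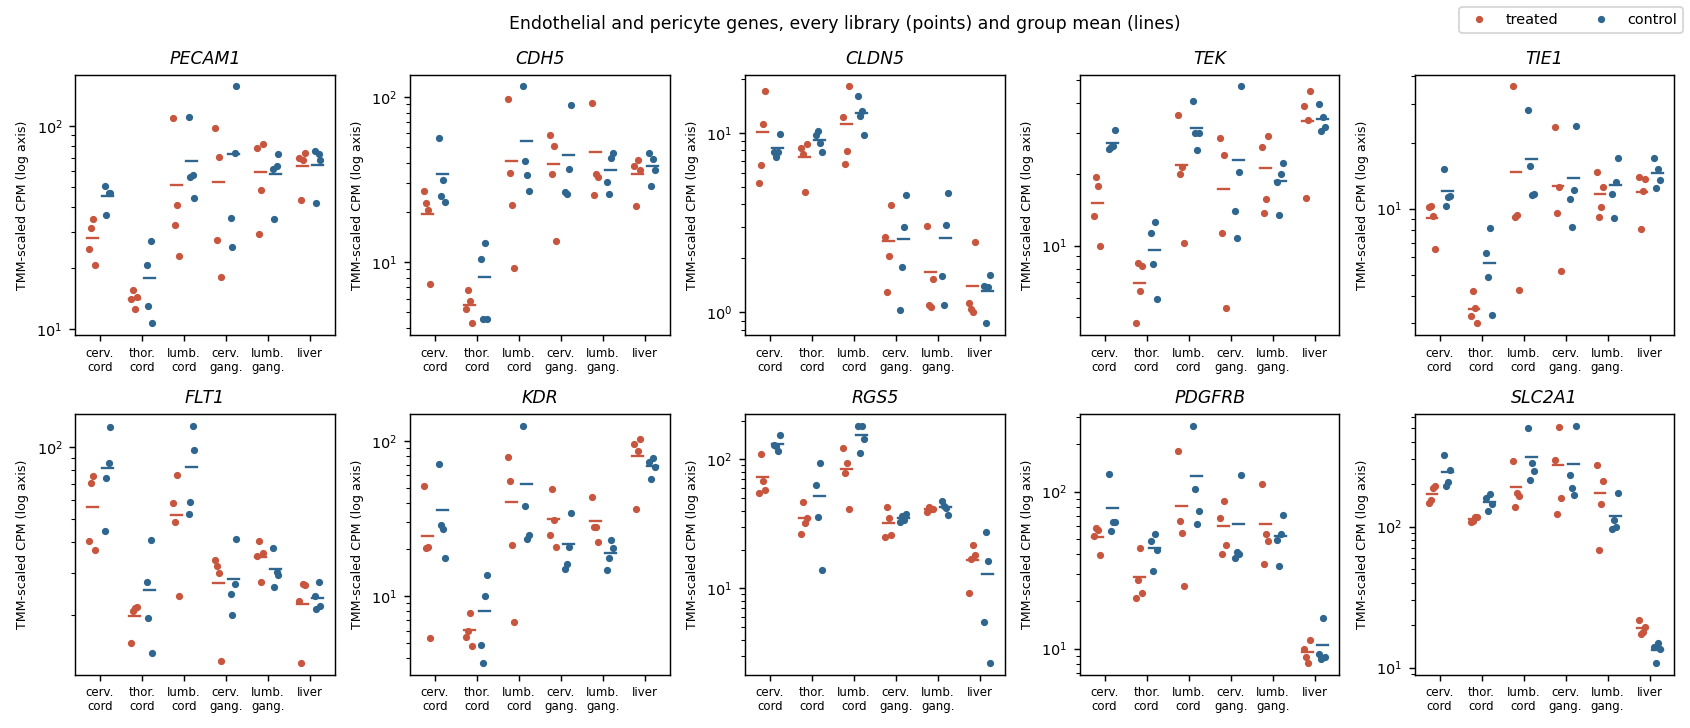
TMM-scaled CPM of each gene (vertical axis, log scale) in every library of the 6 tissues, with treated animals in red left of control animals in blue, points for libraries and lines for group means. In cervical cord the treated points of PECAM1, TEK, RGS5 and SLC2A1 lie below all control points, and in liver those of SLC2A1 lie above (17.3 to 21.7 against 10.8 to 15 CPM).

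Summed over the 3 regions of each animal, all 10 genes were negative with a median of -0.55, against 48.7% negative and a median of 0.01 over 15002 genes. Of the 10 genes 0 passed in edgeR (0% of all genes), 3 had an unadjusted p under 0.05, as 524 genes did, 1 passed in DESeq2 and 0 in limma voom. The gene called by DESeq2 was RGS5, at -0.85 (DESeq2 adjusted p = 0.0472), where DESeq2 called 57 of all genes (0.38%). Treated lay wholly below control for 3 of 10, as for 1.43% of all genes. RGS5 had 66.7, 78.0, 64.6 and 46.3 CPM in treated animals, against 124, 90.2, 127 and 111 CPM in control animals, a fold change of -0.83 ± 0.19 (edgeR adjusted p = 0.858, exact p = 0.0286). TEK had 17.6, 15.9, 15.2 and 9.81 CPM in treated animals, against 25.7, 21.3, 20.9 and 23.3 CPM in control animals, a fold change of -0.65 ± 0.19. SLC2A1 had 178, 135, 163 and 164 CPM in treated animals, against 325, 178, 217 and 215 CPM in control animals, a fold change of -0.55 ± 0.21. For SLC2A1 the highest treated and the lowest control animal nearly met, and control animal 1 was far above the other 7. The sums of treated animal 1 and control animal 1 include the lumbar libraries low in MOG, also in the DESeq2 call of RGS5.

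The remaining genes of the summed cord overlapped. CDH5 gave -0.66 ± 0.39, PDGFRB -0.59 ± 0.30, KDR -0.55 ± 0.41, FLT1 -0.52 ± 0.26, PECAM1 -0.50 ± 0.26 and TIE1 -0.41 ± 0.30, each with an edgeR adjusted p of 0.858. Without control animal 1 the median of the 10 was -0.34 and SLC2A1 was at -0.32, while TEK and RGS5 were at -0.63 and -0.80. Fibroblast genes of the summed cord were negative in 7 of 8 (median -0.47), and their part in the result was not tested.

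**Figure D3:**
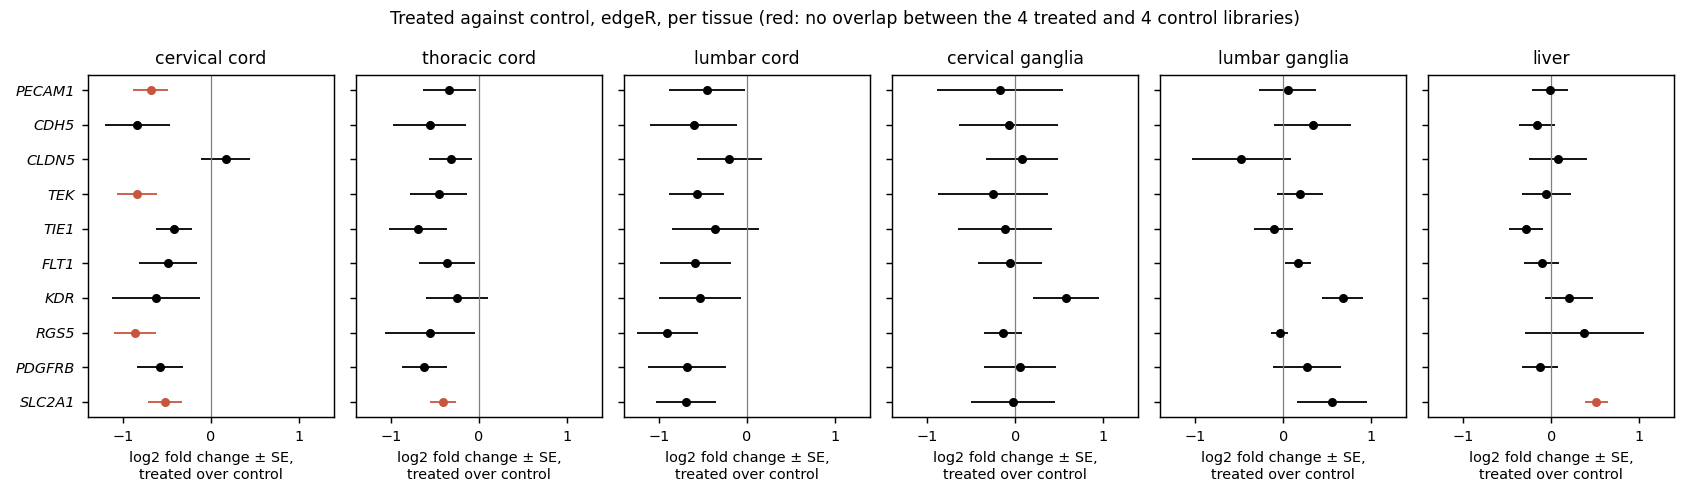
Log2 fold changes of treated over control with their SE (horizontal axis) for the 10 genes (rows) in each tissue, from edgeR, with red points where the 4 treated and 4 control libraries did not overlap. Nearly all points of the cord panels lie left of 0 (RGS5 -0.86 in cervical and -0.91 in lumbar cord), the ganglion panels are centred near 0 with KDR to the right (0.57 and 0.68), and in liver SLC2A1 is the red point, at 0.51.

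In cervical ganglia the 10 genes lay on both sides of 0. The fold change was negative in 7 of 10 with a median of -0.06, and in 4 of 10 with a median of 0.03 under total-count scaling, which moved the median of all 14173 genes to 0.11, from 0.05 with TMM. In edgeR 0 of 10 passed (0% of all genes) and 0 had an unadjusted p under 0.05, as 1042 genes did, and 0 passed in DESeq2 or limma voom. KDR was the exception in size, at 24.7, 49, 30.8 and 20.7 CPM in treated ganglia, against 14.9, 16.1, 20.7 and 34.5 CPM in control ganglia. Control animal 4 lay among the treated libraries, and the fold change was 0.57 ± 0.37 (edgeR adjusted p = 0.738), and 0.22 without treated replicate 2. That animal was the highest control for all 10 genes, with 157 CPM of PECAM1 against 25.5 to 73.8 in the other controls. Its fibroblast genes summed to 9013 CPM, and those of the other 3 controls to 1418 to 2703 CPM. Without it 9 of 10 genes were positive, with a median of 0.28. The median was also 0.27 without treated replicate 4, which had a mitochondrial share of 23% against 7.75% to 13.4% in the other treated cervical ganglia, and it was -0.28 without treated replicate 1. The part of the fibroblast genes in this was not tested.

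In lumbar ganglia the fold change was positive in 7 of 10 genes, with a median of 0.18, and in 9 of 10 with a median of 0.37 under total-count scaling. The median of all genes was 0.05 with TMM and 0.24 with total counts. In edgeR 0 of 10 passed, while 612 of 14267 genes did (4.29%). An unadjusted p under 0.05 was found for 1 of 10 and for 3225 genes in all. By DESeq2 and limma voom 0 of 10 passed as well, while 1738 and 598 genes did. Of the 612 genes 91 were higher and 521 lower, and with total-count scaling 1475 were higher and 368 lower. None of the 10 separated the groups, which 16.7% of all genes did in either direction. KDR had 43.4, 27.9, 27.9 and 22.5 CPM in treated ganglia, against 14.7, 17.7, 23 and 20.5 CPM in control ganglia. The overlap was confined to treated replicate 4 and control replicate 3, and the fold change was 0.68 ± 0.23 (edgeR adjusted p = 0.143, exact p = 0.0571). SLC2A1 gave 0.56 ± 0.40, from 275, 68.2, 144 and 210.1 CPM in treated ganglia against 95.7, 111, 99.9 and 172 CPM in control ganglia, with the lowest and the highest library both treated. It was at 0.0046 without treated replicate 1 and at 0.81 without treated replicate 2. FLT1 gave 0.17 ± 0.15. Without treated replicate 1, whose CDH5 was at 92.0 CPM against 25.5 to 34.2 CPM in the other treated ganglia, 6 of 10 genes were negative with a median of -0.16. Treated lumbar ganglia also differed in neuronal genes, of which 2 of 5 passed lower and 4 of 5 were negative (median -0.62), and their part in the result was not tested.

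Fitted together in limma with region as a term and animal as a random block, both ganglia gave 5 of 10 negative and a median of -0.02, against 43.3% negative over all genes. In that fit 0 of 10 passed, while 142 of 14535 genes did (0.977%). An unadjusted p under 0.05 was found for 0 of 10 and for 1677 genes in all. DESeq2 on counts summed per animal also passed 0 of 10. KDR ranged from 21.2 to 49.8 CPM with a median of 27.5 in treated ganglia, and from 14.5 to 35 CPM with a median of 18.8 in control ganglia. Its fold change was 0.62 ± 0.30 (limma adjusted p = 0.466), and it stayed between 0.46 and 0.82 when each animal was left out in turn.

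In liver the fold change was negative in 6 of 10 genes with a median of -0.04, and in 1 of 10 with a median of 0.14 under total-count scaling, where the median of all 12609 genes was 0.18, against 0.01 with TMM. Of the 10 genes 0 passed in edgeR (0% of all genes), 1 had an unadjusted p under 0.05, as 1049 genes did, and 0 passed in DESeq2 or limma voom. SLC2A1 was at 21.7, 17.3, 17.9 and 19.3 CPM in treated livers, against 14.1, 10.8, 15 and 13.6 CPM in control livers. All 4 treated livers lay above all 4 controls, as was so for 2.05% of all genes, and the fold change was 0.51 ± 0.13 (edgeR adjusted p = 0.363, exact p = 0.0286). It lay between 0.41 and 0.57 when each replicate was left out in turn, and was 0.69 with total counts. TIE1 gave -0.29 ± 0.19, from 13.9, 8.10, 12 and 13.7 CPM in treated livers against 17.1, 12.4, 15.2 and 13.5 CPM in control livers. Treated replicate 2 had the lowest level of its group in PECAM1, CDH5, TEK, TIE1, FLT1 and KDR. KDR, for instance, was at 36.3 CPM there, against 86.7 to 103 CPM in the other treated livers and 56.9 to 78.0 CPM in control livers. Hepatic red cell genes summed to 32.3 to 202 CPM in treated and 49.3 to 132 CPM in control livers, and their part in the level of SLC2A1 was not tested.

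Whether the treatment effect differed between tissues was tested in 1 limma fit of all 48 libraries. The effect in ganglia minus that in cord was positive for 9 of 10 genes, yet 0 passed (0.308% of 15240 genes passed). Over all genes the median of this difference was -0.0049. An unadjusted p under 0.05 was found for 0 of 10 and for 1493 genes in all. KDR gave the largest difference, 1.03 ± 0.52 (limma adjusted p = 0.519), followed by PDGFRB at 0.70 ± 0.38 and CDH5 at 0.59 ± 0.47. The effect in liver minus that in cord was positive for all 10, with 0 passing (0.157% of all genes). Over all genes the median of this difference was 0.012. An unadjusted p under 0.05 was found for 2 of 10 and for 852 genes in all. RGS5 gave 1.52 ± 0.51 (limma adjusted p = 0.515) and SLC2A1 1.04 ± 0.41 (adjusted p = 0.70). The liver effect of RGS5 itself was below its SE in edgeR, and control livers ran from 2.14 to 22.2 CPM per kilobase of RGS5. When each animal was left out in turn, RGS5 ran from 1.09 to 2.13 and SLC2A1 from 0.92 to 1.11. A difference in effect between tissues was therefore not shown for any of the 10 genes.

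Genes of other vascular lists were counted too, and which cells made their RNA in each tissue was not tested. In summed cord 14 of 17 other endothelial genes were negative (median -0.22), as were 10 of 11 barrier junction and carrier genes (-0.21), 9 of 12 pericyte and smooth muscle genes (-0.20) and 10 of 12 angiogenic ligands and co-receptors (-0.23), and 0 of them passed. Each of these medians lay nearer 0 than the -0.55 of the 10 genes. TFRC, the transferrin receptor of barrier endothelium, lay wholly below control in summed cord, at 77.1 ± 11.1 CPM in treated and 128 ± 29.3 CPM in control animals (SD, n = 4 each). Its fold change was -0.71 ± 0.19 (edgeR adjusted p = 0.858), and -0.64 ± 0.19 in cervical and -0.83 ± 0.21 in thoracic cord. ABCC9, a potassium channel subunit of pericytes, gave -0.75 ± 0.24, and the ligand VEGFA gave -0.48 ± 0.17 with no overlap. VEGFA was at 42.1 ± 5.32 CPM in treated and 69.2 ± 8.45 CPM in control thoracic cords, a fold change of -0.71 ± 0.17. VWF, the clotting factor carrier of endothelial cells, gave -0.88 ± 0.29 in cervical cord. Some genes stood on the other side: LYL1, an endothelial and blood cell transcription factor, at 0.58 ± 0.21 in summed cord, PDGFB, the ligand of PDGFRB, at 0.64 ± 0.24 in thoracic cord, and CSPG4, a pericyte proteoglycan, at 0.43 ± 0.15 in cervical cord.

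In both ganglia together 11 of 17 other endothelial genes were positive (median 0.06), 7 of 11 barrier genes negative (-0.09, and 6 of 11 positive with total counts), 8 of 12 pericyte genes positive (0.13) and 10 of 12 angiogenic genes positive (0.08), with 0 passing, against a median of 0.05 over all genes. In lumbar ganglia 1 of the 12 angiogenic genes passed, and 0 of the 17 endothelial, 11 barrier, 12 pericyte and 5 sinusoidal genes, where 4.29% of all genes did. NRP1, a co-receptor of VEGF, was at 117 ± 4.62 CPM in treated and 91.5 ± 5.54 CPM in control ganglia, a rise of 0.36 ± 0.08 (edgeR adjusted p = 0.0464). The call was lost in limma voom (adjusted p = 0.0504), without the filter on low counts (0.0524), with a replicate block (0.107) and with any 1 replicate left out (edgeR adjusted p of 0.0560 to 0.176). MYH11, a smooth muscle myosin, gave 0.60 ± 0.18 and STAB1, a scavenger receptor of sinusoids and macrophages, 0.45 ± 0.13, while the carriers SLC7A5, MFSD2A and TFRC gave -0.73 ± 0.19, -0.64 ± 0.18 and -0.55 ± 0.17, with edgeR adjusted p of 0.0725 to 0.113.

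In liver 10 of 17 other endothelial genes were negative (median -0.12), 7 of 11 barrier genes positive (0.17), 10 of 11 pericyte genes negative (-0.09), 8 of 12 angiogenic genes negative (-0.25) and 4 of 6 sinusoidal genes negative (-0.21), with 0 passing. Under total-count scaling 6 of 17 endothelial and 4 of 11 pericyte genes were negative. VEGFB, a ligand of FLT1, was at 5.49 ± 0.904 CPM in treated and 8.90 ± 0.346 CPM in control livers without overlap. Its fold change was -0.70 ± 0.15 (edgeR adjusted p = 0.293). VEGFB passed in DESeq2 (adjusted p = 0.00364), which called 190 of 12609 genes in liver where edgeR called 0. NRP1 gave -0.39 ± 0.11 in liver, with 58.6 ± 5.85 CPM in treated and 76.7 ± 9.55 CPM in control livers. FCN3, a ficolin, gave -0.39 ± 0.13, and the junction gene TJP1 and the efflux pump gene ABCB1 each gave 0.45, with SE of 0.13 and 0.15.

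**Figure D4:**
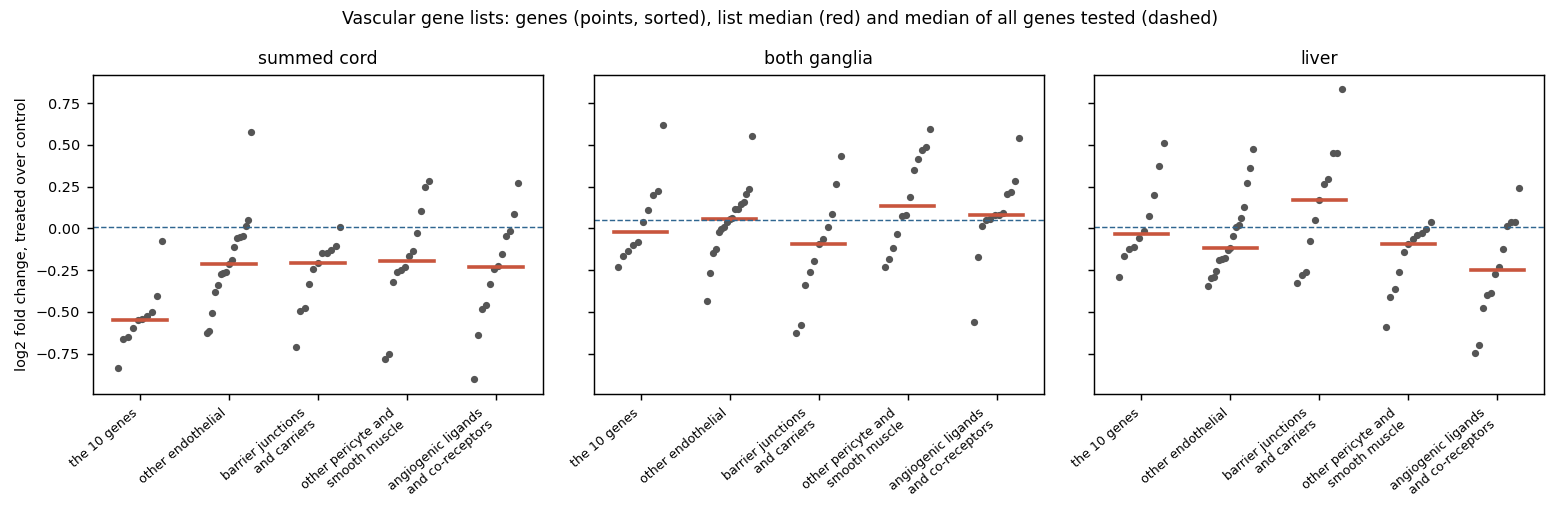
Log2 fold changes of treated over control (vertical axis) for the 10 genes and 4 lists of other vascular genes (horizontal axis) in summed cord, both ganglia and liver, with a point per gene, the list median in red and the median of all genes tested as a dashed line. In summed cord the medians are -0.55 for the 10 genes and -0.20 to -0.23 for the lists, and in ganglia and liver the list medians lie between -0.25 and 0.17.

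How the genes varied between animals of a group was described from deviations from tissue and treatment means. Over 16 libraries of cervical and thoracic cord, the median correlation between pairs of the 10 genes was 0.36, from -0.76 for CLDN5 with KDR to 0.89 for CDH5 with TIE1. In the 16 ganglion libraries it was 0.52, and in the 8 livers 0.51. CLDN5 was the gene least tied to the rest in cord, with a median r of -0.13, as was RGS5 in ganglia (-0.12) and in liver (-0.24). KDR in cord went with the summed fibroblast genes (r = 0.80), and in ganglia PDGFRB (0.82), SLC2A1 (0.76) and CDH5 (0.72) did so. PDGFRB and RGS5, both named above as pericyte genes, had r = 0.28 in cord, and which cells made PDGFRB was not tested. These libraries share animals, so the values only describe them.

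Among 12949 genes, those most like CLDN5 over the same 16 cord libraries were FTSJ1 and COX4I2 (r = 0.90 each), RUVBL2 (0.88), ZDHHC7 and CHMP1A (0.87 each). The genes most like RGS5 were SHE and DNAH5 (r = 0.93 each), ZNF366 and PTPRB (0.90 each) and APOLD1 (0.89). Of these, PTPRB is the endothelial phosphatase that acts on TEK, and it is on the list of angiogenic co-receptors. In cervical cord PTPRB was at 27.5 ± 10.5 CPM in treated and 47.2 ± 9.16 CPM in control animals, a fold change of -0.80 ± 0.31 (edgeR adjusted p = 0.504).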

How the data were processed

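Messenger RNA was sequenced in 48 libraries. Per the labels' protocols, mRNA libraries were stranded and read as pairs of 50 bases. The authors deposited unnormalized counts for each gene name, from featureCounts 1.4.6-p1 on Ensembl release 94 of the Macaca_fascicularis 5.0 build per the file headers, without options for pairs or strand, so each mate was counted. Alignment used STAR 2.5.3a per the submitters' processing notes. Depth was 35453786 to 53480762 counts per library, and the number of animals limits the precision more than counting error does. No 2 libraries were duplicates: at least 14279 genes differed between any pair.

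The 10 genes and the lists were chosen with earlier results of these data known. Groups follow the labelled tissue and dose. In each tissue, treated and control counts were filtered with filterByExpr, scaled by TMM and tested with the robust quasi-likelihood test of edgeR 4.0.16 under R 4.3.3, sex being a covariate, with p adjusted by Benjamini-Hochberg over all genes. Cord counts were also summed per animal. Both ganglia, and differences of effects, were fitted in limma 3.58.1 voom with animal as a random block (statmod 1.5.0). For tissues and for cord regions, edgeR held animal as a fixed block. Single values used exact two-sided permutation tests of log2 (CPM + 0.5). Simulated counts with known changes were run through the edgeR fit of cervical cord and the limma fit of both ganglia only. They held no effect of animal or region, so they do not test the animal block or the spread of these libraries. A treated against control fold change of 1 of the 10 genes is printed singly where its size is at least its SE, and up to 3 genes of each other list with the smallest p were named. Correlations used log2 CPM with a prior count of 2 and genes of at least 1 CPM. ECSCR, CLEC14A, ABCG2, CLEC4M, FCN2, PRPH and the alpha globin genes were not analysed here, and 1 further marker list is not reported here.

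Alternatives were DESeq2 1.42.0, limma voom, median-ratio or total-count scaling, no filter on low counts, no sex term, a replicate block, and leaving out libraries or animals. Leaving out the libraries with a mitochondrial share over 30% was chosen after seeing the data. Replicate numbers paired the libraries by the rule set for this work only in lumbar cord, where same-numbered treated and control libraries deviated together (r = 0.92, 0.19, 0.79 and 0.51), although treated and control are different animals.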

Additional observations from a re-analysis of the deposited data

Results flagged for a closer look

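In 11 of the 120 groups of 4 libraries tested (10 genes, 6 tissues, treated and control), 1 library lay far from the other 3 by Dixon's criterion. The criterion flags about 5% of independent groups of normal values. These groups share libraries and animals, and CPM was used without a log scale, so their number was not tested against chance. Of the 11 flags, 2 were treated lumbar libraries of a replicate 1: TIE1 was at 36.1 CPM in cord, against 4.27 to 9.37 CPM in the other treated cords, and CDH5 was at 92.0 CPM in ganglia, against 25.5 to 34.2 CPM. The control lumbar cord of animal 1 stood apart in CDH5, with 116 CPM against 27 to 41 CPM, and in KDR, with 125 CPM against 23.3 to 37.9 CPM. In cervical cord, control animal 1 had 129 CPM of PDGFRB, against 56.2 to 64.2 CPM in the other controls, and control animal 4 had 30.7 CPM of TEK, against 25.5 to 26.4 CPM.

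In cervical ganglia, control animal 4 had 89.7 CPM of CDH5, against 25.8 to 36.6 CPM, and 128 CPM of PDGFRB, against 37.8 to 41.4 CPM. Treated thoracic cord replicate 1 was the 1 library far below its group, with 15.3 CPM of FLT1 against 20.8 to 21.5 CPM. In liver, treated replicate 4 had 2.47 CPM of CLDN5, against 1.000 to 1.12 CPM, and control replicate 3 had 15.6 CPM of PDGFRB, against 8.60 to 9.21 CPM.

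SLC2A1 lay on opposite sides of control in 2 organs: all treated livers lay above all controls (log2 fold change 0.51), and all treated cervical and thoracic cords lay below theirs. The limma test of the effect in liver minus that in cord gave 1.04 ± 0.41 with an adjusted p of 0.70, so the difference did not pass.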

How the results depend on the processing

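No gene among the 10 was called between treated and control in any tissue by edgeR or limma under any alternative, and in DESeq2 only RGS5 in summed cord was (1 of 10). Of the single fold changes of the 10 genes under the alternatives, 1362 kept their direction and side of the threshold, 13 newly passed, 15 no longer passed and 9 reversed, and the cause was not tested. The reversals were PECAM1 (0.018), FLT1 (0.0088) and RGS5 (0.18) in thoracic cord without control replicate 3, and with 1 replicate left out these ran from -0.49, -0.56 and -0.83 up to those values. For ganglia over cord, KDR reversed without control animal 1 (range over animals left out -0.52 to 0.10) and TIE1 without control animal 4 (range -0.16 to 0.42). For lumbar over cervical cord without the libraries low in MOG they were TEK (-0.0029), TIE1 (-0.11), PDGFRB (-0.049) and SLC2A1 (-0.081). With 1 replicate or animal left out, the median of the 10 genes ran from -0.16 to 0.31 in lumbar ganglia, and the genes called between lumbar and cervical ganglia from 0 to 1. For liver over ganglia, CDH5 and FLT1 were lost without control animal 2 (adjusted p = 0.0997 and 0.0621), CDH5 also without control animal 3 (0.0641) and PDGFRB without control animal 4 (0.0699), all in edgeR.

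With the replicate number as a block, 0 of the 10 genes were called between treated and control in each tissue, summed cord and both ganglia, as without it; in lumbar ganglia 206 of all genes were called, against 612.

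Counts over all genes varied more: over the alternatives, 0 to 190 genes were called in liver, 0 to 108 in cervical, 0 to 28 in thoracic, 0 to 6 in lumbar and 0 to 57 in summed cord, 0 to 225 in cervical, 18 to 1843 in lumbar and 0 to 967 in both ganglia. Between lumbar and cervical cord 3 to 303 were called, between lumbar and cervical ganglia 9 to 106, and for the difference of effects 15 to 140 (ganglia minus cord) and 9 to 39 (liver minus cord). Groups of 4 animals limit what small fold changes can pass.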

Other observations

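Lists of other cell types were counted beside the vascular genes in summed cord. The fold change of treated over control was negative in 4 of 6 central myelin and astrocyte genes (median -0.03), 5 of 5 neuronal genes (-0.30), 4 of 4 hepatocyte genes (-0.26) and 2 of 3 red cell genes (-0.20), and positive in 4 of 6 macrophage and microglia genes (0.12), and none passed in edgeR. In both ganglia all 5 neuronal genes were negative (median -0.65), and in lumbar ganglia their summed level was 5966 to 8076 CPM in treated and 11707 to 15351 CPM in control libraries. Fibroblast genes there summed to 1011 to 4827 CPM in treated and 975 to 2143 CPM in control libraries.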
